A study of Sus scrofa with 44 samples.

Results

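The expression of 10 genes of fat-cell formation and fatty acid uptake was followed through the prenatal life of a pig muscle: PPARG, PPARA, CEBPA, CEBPB, FABP4, FABP3, PLIN1, ADIPOQ, LPL and CD36. They were chosen by gene name. Of these 10 genes, 9 were matched by symbol to the Ensembl pig gene identifiers of the deposited files, which hold 22427 genes each. CD36 had no symbol match. It was taken as ENSSSCG00000015405, because the 1 peak listed under that identifier lies in the last exon of CD36 in 7 of the 11 RefSeq transcripts of that gene.

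The series measured RNA and its N6-methyladenosine (m6A), a methyl mark on adenosines of messenger RNA, by sequencing input RNA and RNA pulled down with an antibody against m6A (MeRIP-seq). Its 44 samples comprise 36 from the longissimus dorsi, a long back muscle, and 8 from PK15, a pig kidney cell line. The muscle samples were rRNA-depleted RNA at 33, 40, 50, 60, 70 and 95 days post coitus (E33, E40, E50, E60, E70 and E95), with 3 input and 3 immunoprecipitated libraries a stage. PK15 had 2 input and 2 immunoprecipitated libraries each of polyA RNA and of rRNA-depleted RNA. No breed, sex or genetic change is given in the labels, and no group carried a treatment. The labels do not say whether the 3 libraries of a stage came from separate fetuses or from pooled tissue, so the p-values measure only the spread between these libraries, which may be technical.

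Adipocytes form when precursor cells switch on the transcription factors C/EBPβ and C/EBPδ, which are followed by PPARγ and C/EBPα. These factors bind the genes of the mature fat cell, among them those for a fatty acid binding protein, a lipid droplet coat protein and the hormone adiponectin. Skeletal muscle takes up fatty acids through the same kind of machinery: lipoprotein lipase frees them from circulating triglyceride at the capillary wall, CD36 helps them across membranes, and heart-type fatty acid binding protein carries them inside the muscle fibre. In skeletal muscle, fat cells lie between the fibres and arise from fibro-adipogenic progenitors.

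Expression was available as TPM, a share of transcripts that allows for transcript length, in the 18 muscle input libraries. A single gene, ENSSSCG00000032395, took 37.4% to 72.4% of the TPM of a library, and a further gene, ENSSSCG00000032599, took 0.227% to 17.3%, with over 10% in E40 replicate 2 and E50 replicate 3. TPM sums to the same total in each library, so the other genes shrink where these genes are high. The values were therefore divided by a median-ratio factor per library (scaled TPM), and these factors differed 6.58-fold between the lowest and the highest library. The median log2 difference between E95 and E33 over the 13334 genes tested was -1.02 as deposited and -0.005 after scaling. Each result below is read on the scaled values, and the deposited scale is named where it changes a direction or a call. Sequencing depth is unknown, and the number of libraries limits the precision. The tissue label was checked on CKM, the muscle creatine kinase, which had 6.47 ± 1.41 scaled TPM (SD, n = 3) at E33 and 1057 ± 242 at E95.

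Most of the 10 genes were highest in late gestation. Of the 8 that could be tested, 7 were higher at E95 than at E33 and none was called lower, where 22.8% of all tested genes were called higher and 23.8% lower (limma on log2(scaled TPM + 1), Benjamini-Hochberg adjusted p under 0.05). These 7 were PPARA, CEBPB, FABP4, FABP3, ADIPOQ, LPL and CD36, and in each of them every E95 library lay above every E33 library, an ordering that 27.2% of all tested genes showed on the scaled values. As deposited, 5 of the 8 had it (not PPARA and FABP3), against 4.51% of all genes. CEBPA was the exception. PPARG and PLIN1 averaged 0.620 and 0.847 TPM over the 18 libraries, below the mean of 1 TPM that a gene needed for testing. ADIPOQ passed that filter through E95 replicate 1 alone: it averaged 1.38 TPM over the 18 libraries and 0.296 TPM over the other 17, so its place among the tested genes is not independent of its rise. Without ADIPOQ the count is 6 of 7. On the TPM as deposited, 4 of the 8 were called higher (ADIPOQ, CD36, FABP4 and LPL), against 2.64% of all genes, and without ADIPOQ 3 of 7.

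**Figure D1:**
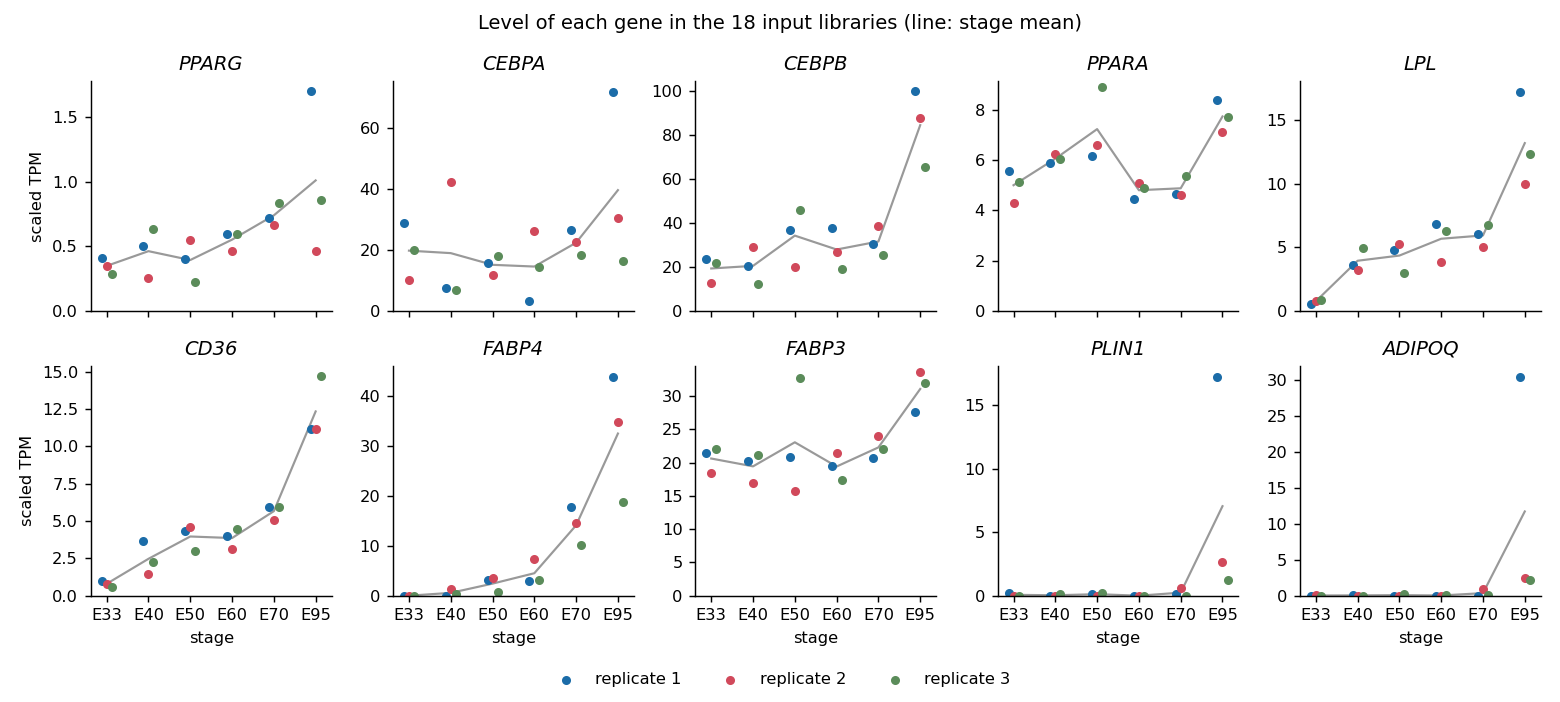
Scaled TPM (vertical axis, linear, from 0, own range per panel) of each of the 10 genes by stage (horizontal axis) in the 18 input libraries, 1 point a library with the replicate in colour, and a line through the stage means. FABP4, LPL and CD36 climb through the stages, CEBPB and PPARA are highest at E95, and ADIPOQ and PLIN1 stay below 1 until E70 and reach 30.5 and 17.3 in E95 replicate 1.

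PPARG, the master regulator of adipocyte formation, was low at every stage. It was listed above 0 in all 18 libraries, with 0.407, 0.352 and 0.289 scaled TPM at E33 and 1.70, 0.466 and 0.859 at E95. All 3 E95 libraries exceeded those of E33, but the lowest E95 library lay below all 3 libraries of E70, which had 0.717, 0.668 and 0.834. As deposited, E95 replicate 2 had the lowest value of the E33 and E95 libraries, 0.271 TPM. Without the filter on low values the difference between E95 and E33 was 0.53 ± 0.17 (log2, SE; limma adjusted p = 0.0255), and leaving out E95 replicate 1 ended this call (0.29, adjusted p = 0.1).

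CEBPA, which maintains the adipocyte programme once PPARγ is active, passed no test between stages. Its 3 E33 libraries had 28.9, 10.3 and 20.2 scaled TPM, and its E95 libraries had 71.8, 30.4 and 16.5. These groups overlap, and the libraries of 1 stage differed as much as the stages did: E40 replicate 2 had 42.4 scaled TPM and E60 replicate 1 had 3.24. The difference between E95 and E33 was 0.83 ± 0.72 (log2, SE; limma adjusted p = 0.374), it was 0.28 without E95 replicate 1, and it turned to -0.38 on the TPM as deposited.

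CEBPB, an early factor of the cascade that also responds to inflammatory signals, was highest at E95. It had 23.8, 12.6 and 21.7 scaled TPM at E33, 30.7, 38.6 and 25.5 at E70, and 100, 87.8 and 65.3 at E95. Each E95 library stood above all 15 earlier libraries, of which the highest was E50 replicate 3 with 45.9. The rise between E33 and E95 was 2.09 ± 0.36 (log2, SE; limma adjusted p = 0.000248), and on the TPM as deposited it was 0.87 with an adjusted p of 0.084. The step between E70 and E95, 1.39 ± 0.36 (limma adjusted p = 0.0192), lost its call when any of 4 libraries was left out (E70 replicate 1 or 3, E95 replicate 1 or 2), with adjusted p-values from 0.0554 to 0.0756.

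PPARA, the fatty acid sensor that drives genes of fatty acid oxidation in liver, heart and muscle, moved little. Its scaled TPM was 5.55, 4.31 and 5.15 at E33, 4.66, 4.62 and 5.35 at E70 and 8.39, 7.11 and 7.70 at E95. The E95 libraries lay above those of E33 and E70, but E50 replicate 3, with 8.91, was higher than any of them. The difference between E95 and E33 was 0.54 ± 0.12 (log2, SE; limma adjusted p = 0.00133) on the scaled values. Its direction depends on the scale: it was -0.54 on the TPM as deposited (adjusted p = 0.24) and -0.02 after rescaling without the 2 genes of highest TPM (adjusted p = 0.896). Within a library no scaling enters a ratio of 2 genes, and PPARA over PPARG in TPM was 12.2 to 17.8 at E33, 6.42 to 6.92 at E70 and 4.93 to 15.2 at E95, so the E33 and E95 ranges overlap.

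Among the genes of fatty acid supply, LPL and CD36 were called higher as early as E40. LPL, the lipase that frees fatty acids from lipoprotein triglyceride, had 0.593, 0.819 and 0.907 scaled TPM at E33 and 3.66, 3.23 and 4.97 at E40. It stayed between 3.03 and 6.86 in the 9 libraries of E50, E60 and E70 and reached 17.2, 9.96 and 12.4 at E95. On the scaled values the groups do not overlap at either step: every E40 library exceeded every E33 library, and every E95 library exceeded all earlier ones. As deposited they do overlap: E40 replicate 2 had 1.51 TPM against 1.65 and 1.71 in E33 replicates 2 and 3, and E95 replicate 2 had 5.79 against up to 8.34 at E60. LPL rose by 1.47 ± 0.22 (log2, SE; limma adjusted p = 0.000401) between E33 and E40 and by 1.01 ± 0.22 (adjusted p = 0.00783) between E70 and E95 on the scaled values, and neither step was called as deposited (adjusted p = 0.15 and 0.651). Over the whole span it rose by 2.97 ± 0.22 (adjusted p = 7.68e-08), and by 2.11 on the TPM as deposited (adjusted p = 0.00234).

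CD36, the membrane receptor that takes up long-chain fatty acids, followed a similar course. Its scaled TPM was 0.973, 0.803 and 0.615 at E33, 3.69, 1.45 and 2.27 at E40, 5.95, 5.10 and 5.95 at E70, and 11.19, 11.14 and 14.72 at E95. No E33 library reached an E40 library, and no earlier library reached E95. As deposited the latter held, but E40 replicate 2 had 0.678 TPM, below all 3 E33 libraries. The rise over the whole span was 2.89 ± 0.20 (log2, SE; limma adjusted p = 3.94e-08), and 2.05 on the TPM as deposited (adjusted p = 0.00215). The steps from E33 to E40 (0.90, adjusted p = 0.00647) and from E70 to E95 (0.99, adjusted p = 0.00456) were called on the scaled values and not on the TPM as deposited (adjusted p = 0.36 and 0.649). Its deposited value was the same in E33 replicates 1 and 3, 1.16 TPM when rounded, and it was the 1 gene above 0.5 TPM whose values in those libraries were equal in every deposited digit. LPL and CD36 had like levels within a library, with a ratio of LPL to CD36 from 0.609 to 2.22 over the 18 libraries.

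FABP4, the fatty acid binding protein of adipocytes, capillary endothelium and macrophages, was first seen after E33. It was listed at 0 in all 3 E33 libraries and in E40 replicate 1. From E50 on it was above 0 in every library, with 3.10, 3.45 and 0.683 scaled TPM at E50, 2.87, 7.42 and 3.19 at E60, 17.7, 14.5 and 10.1 at E70 and 43.8, 34.7 and 18.8 at E95. The 3 latest stages do not overlap one another on this scale, while as deposited E95 replicate 3 had 16.3 TPM and E70 replicate 1 had 17.1. FABP4 differed between E95 and E33 with a limma adjusted p of 3.15e-07 on the scaled values and 1.4e-06 on the TPM as deposited, and no fold is given against a stage listed at 0. None of its single steps between consecutive stages was called (lowest adjusted p = 0.106, from E60 to E70), although the 3 steps from E40 to E50, E60 to E70 and E70 to E95 lie between 1.10 and 1.52 on the log2 scale.

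FABP3, the heart and muscle type of the same protein family, varied less. It had 21.4, 18.4 and 22.0 scaled TPM at E33, stayed between 15.7 and 32.7 in the 12 libraries of E40 to E70, and had 27.6, 33.7 and 31.9 at E95. The 3 E95 libraries lay above those of E33, E40, E60 and E70, and E50 replicate 3 reached their range. The difference between E95 and E33 was 0.57 ± 0.19 (log2, SE; limma adjusted p = 0.0253), and it was -0.64 on the TPM as deposited (adjusted p = 0.229) and -0.07 after rescaling without the 2 genes of highest TPM (adjusted p = 0.778). Quantile normalization gave 0.45 with an adjusted p of 0.052. Leaving out E33 replicate 2, E95 replicate 2 or E95 replicate 3 also ended the call (adjusted p = 0.0855, 0.0791 and 0.0624).

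The balance of the 2 binding proteins was lower in FABP3 late in gestation. The ratio of FABP3 to FABP4 in TPM, which no scaling of a library changes, could not be formed at E33, where FABP4 was listed at 0. It was 11.9 and 76.6 in the E40 libraries that had FABP4, and 6.72, 4.54 and 47.8 at E50. It then was 6.79, 2.89 and 5.43 at E60, 1.17, 1.66 and 2.19 at E70, and 0.629, 0.972 and 1.70 at E95. Every E70 and E95 library thus had a lower ratio than every earlier library in which it could be formed, and in E95 replicates 1 and 2 FABP4 exceeded FABP3.

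PLIN1, which coats the lipid droplet of adipocytes, and ADIPOQ, the adipocyte hormone adiponectin, were seen mainly at E95. Each was listed at 0 in 9 of the 18 libraries, and before E95 the highest values were 0.601 scaled TPM for PLIN1 and 0.985 for ADIPOQ, both in E70 replicate 2. At E95 PLIN1 had 17.3, 2.66 and 1.23 scaled TPM. ADIPOQ had 30.5, 2.45 and 2.21. All 3 E95 libraries of both genes exceeded all earlier ones, and replicate 1 stood far above the other two. ADIPOQ differed between E95 and E33 by 2.78 ± 0.62 (log2, SE; limma adjusted p = 0.00188), and by 1.70 ± 0.22 without E95 replicate 1 and without the filter, which it would then miss (adjusted p = 6.13e-05). PLIN1 differed by 2.32 ± 0.52 when tested without the filter on low values (adjusted p = 0.00288), and by 1.43 ± 0.20 without E95 replicate 1 (adjusted p = 0.000154). Fitting only the libraries of E33 and E95 ended the call for ADIPOQ (adjusted p = 0.0567).

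**Figure D2:**
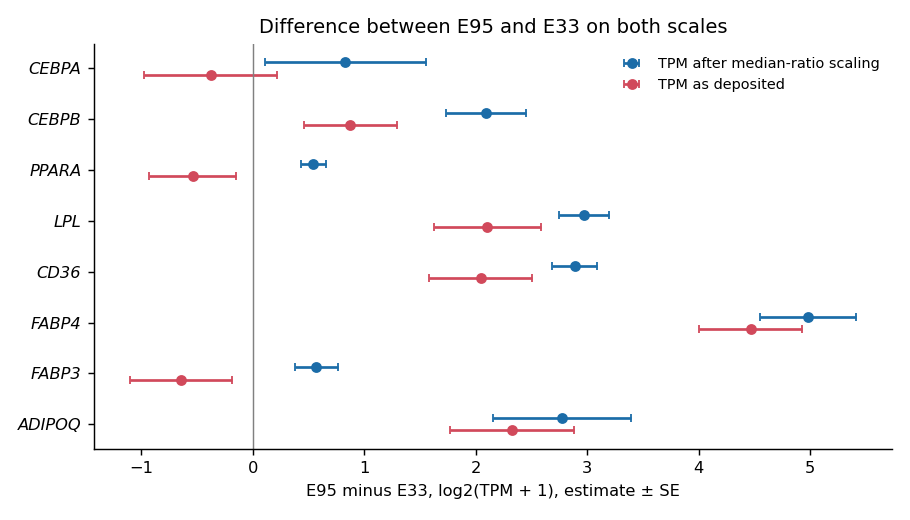
Difference between E95 and E33 (horizontal axis, log2(TPM + 1), estimate with its standard error) for the 8 genes tested (vertical axis), on scaled TPM in blue and on TPM as deposited in red. FABP4, LPL, CD36 and ADIPOQ lie above 2 on both scales, and PPARA, FABP3 and CEBPA change sign between them.

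Set side by side over the stages, 6 of the 8 genes passed the F test across all 6 stages (all but CEBPA and FABP3), where 47.5% of all tested genes passed. Without ADIPOQ, which met the filter through E95 replicate 1 alone, the count is 5 of 7. On the TPM as deposited 4 passed (ADIPOQ, CD36, FABP4 and LPL), against 20.1% of all genes. Between consecutive stages, LPL and CD36 were called from E33 to E40, where 21% of all genes were called. From E70 to E95, ADIPOQ, CD36, CEBPB, LPL and PPARA were called (4 of 7 without ADIPOQ), where 13.5% of all genes were called. In the middle 3 steps limma called 0 of the 8 genes, where 1.54%, 0.817% and 1.76% of all genes were called. At an unadjusted p under 0.05 the middle steps had 2 (CD36 and FABP4), 1 (PPARA) and 2 (CD36 and FABP4) of the 8, beside 13.9%, 11.9% and 12.8% of all genes. On the TPM as deposited no consecutive step of any of the 8 was called, where 4.87%, 0.0075%, 0.06%, 0.0825% and 0.285% of all genes were called from the first step to the last, and 1 of the 8 had an unadjusted p under 0.05 in each step, beside 25.9%, 2.75%, 14.4%, 2.89% and 7.98% of all genes. After rescaling without the 2 genes of highest TPM, the last step was no longer called for PPARA, LPL and CD36 (adjusted p = 0.0672, 0.0891 and 0.0814). A fit of only the 2 stages compared ended the calls of LPL and ADIPOQ in the last step (0.0536 and 0.194) and of CD36 in the first (0.07). Leaving out E70 replicate 1 or 3 ended the call of ADIPOQ in the last step (0.0617 and 0.0579). The median log2 difference of the 8 genes between E95 and E33 was 2.44 scaled and 1.46 as deposited, beside -0.005 and -1.02 over all genes tested. Without ADIPOQ the middle value of the other 7 is that of CEBPB, 2.09 scaled and 0.87 as deposited.

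The other genes of the surrounding pathways did not move as one. Lists of genes other than the 10 were compared between E95 and E33 on the scaled values. The counts as deposited, given in brackets, stand beside 2.64% of all tested genes called higher and 45.8% called lower on that scale. Fatty acid oxidation had the most calls in 1 direction: 17 of 23 tested genes rose and 1 fell, with a median log2 difference of 1.19, beside 22.8% and 23.8% of all tested genes. CPT1B, the muscle enzyme that admits fatty acids to mitochondria, went from 5.13 ± 0.72 scaled TPM (SD, n = 3) at E33 to 64.1 ± 14.1 at E95. PDK4, which spares glucose when fatty acids are burnt, went from 0.769 ± 0.197 to 7.56 ± 2.79. On the TPM as deposited, 3 of these 23 genes were called higher and 1 lower.

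Fatty acid synthesis went the other way. Of 11 tested genes 8 were lower at E95 and 1 was higher, with a median log2 difference of -1.07 (10 lower and 1 higher as deposited). FADS1, a desaturase of polyunsaturated fatty acids, fell from 50.0 ± 5.87 scaled TPM (SD, n = 3) to 6.25 ± 0.92. SCD, the stearoyl-CoA desaturase, fell from 23.0 ± 0.89 to 2.97 ± 0.79. THRSP, a lipogenic gene of adipose tissue, was the 1 that was higher, with 0, 0 and 0.657 scaled TPM at E33 and 16.6, 1.51 and 3.19 at E95, and a fit of only these 2 stages ended its call (limma adjusted p = 0.0551).

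Fatty acid uptake and binding genes split. Of 15 tested, 7 rose and 4 fell, with a median of 0.53 (3 higher and 5 lower as deposited). GPIHBP1, which anchors lipoprotein lipase on the capillary wall, rose from 2.45 ± 0.61 scaled TPM (SD, n = 3) to 25.4 ± 3.42. CAV1, the main protein of caveolae, rose from 3.96 ± 0.73 to 33.2 ± 1.37. FABP7, the brain type of the binding protein family, had 2.77, 13 and 1.78 at E33 and was listed at 0 in all 3 E95 libraries (limma adjusted p = 0.000476).

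Lipid droplet and triglyceride genes counted 8 higher and 1 lower of 20, with a median of 0.29 (6 higher and 7 lower as deposited). PLIN5, the droplet coat protein of oxidative tissue, had 0, 0.384 and 0.745 scaled TPM at E33 and 22.1, 42.5 and 24.6 at E95. PLIN4, another perilipin, rose from 0.340 ± 0.289 (SD, n = 3) to 14.4 ± 8.25. PLIN5 and PLIN4 were named because their E33 and E95 libraries do not overlap. PLIN1 was also higher in all 3 E95 libraries. As a ratio, its replicate 1 stood further above the other E95 libraries than any E95 library of PLIN5 or PLIN4. PLIN2 and PLIN3 of this list were not called on the scaled values, and PLIN3 was called lower as deposited. Adipokine receptors and adipocyte products had 5 higher and 0 lower of 9, with a median of 0.56 (2 higher and 1 lower as deposited). SLC2A4, the insulin-responsive glucose transporter of muscle and fat, went from 0.458 ± 0.608 to 35.9 ± 0.74. CFD, the serum protease adipsin, had 6.26 scaled TPM in 1 E33 library, was listed at 0 in the other two, and had 20.7, 50.2 and 50.9 at E95.

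Adipogenic regulators outside the 10 genes were divided, with 9 higher and 7 lower of 23 and a median of 0.26 (1 higher and 8 lower as deposited). PPARGC1A, the coactivator that drives mitochondrial genes, rose from 0.593 ± 0.117 scaled TPM (SD, n = 3) to 13.7 ± 3.96. DLK1, an inhibitor of adipocyte formation that fetal muscle also expresses, went from 81.5 ± 16.3 to 401 ± 56.3, a rise that was not called as deposited (adjusted p = 0.0874). SREBF2, the regulator of cholesterol synthesis, fell from 30.9 ± 3.43 to 8.87 ± 0.40. EBF2, a factor of adipose precursors, fell from 36.7 ± 1.37 to 13 ± 1.97. The genes named for these lists were picked from those called, so that all of them differed follows from the choice. Their limma adjusted p-values ran from 5.45e-10 to 0.00462 on the scaled values.

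**Figure D3:**
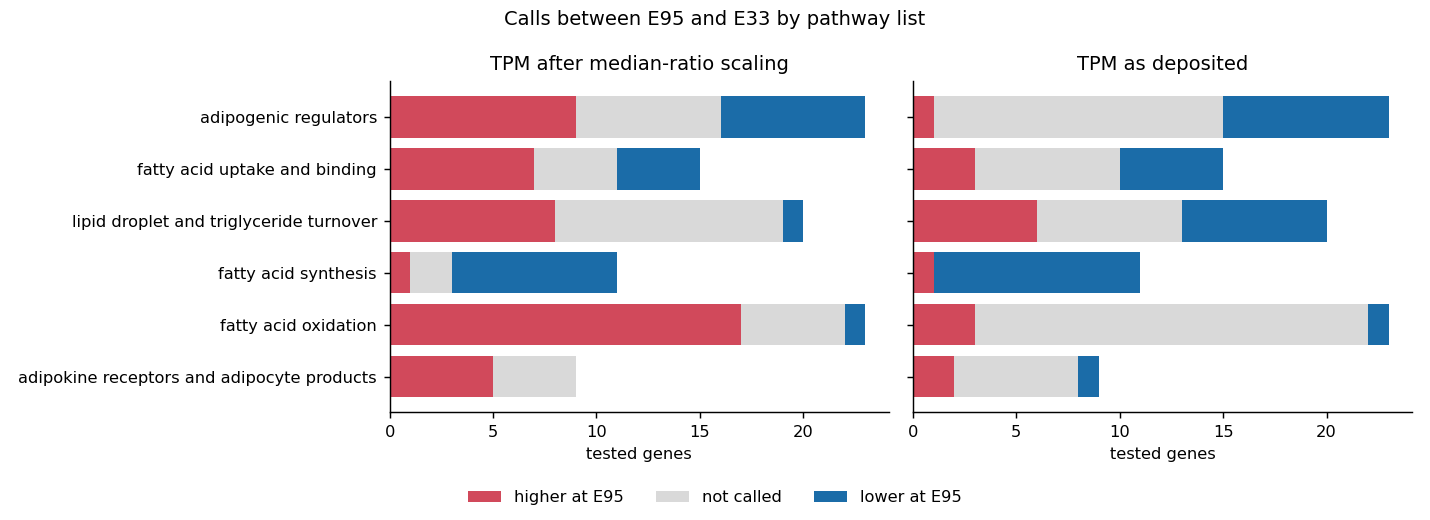
Number of tested genes (horizontal axis) called higher at E95 (red), lower at E95 (blue) or not called (grey) against E33, for each of the 6 pathway lists (vertical axis), on scaled TPM on the left and TPM as deposited on the right. Fatty acid oxidation has 17 of 23 higher on the scaled values and 3 of 23 as deposited, and fatty acid synthesis is mostly lower on both.

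Markers of some of the cell types that a piece of fetal muscle holds rose with these genes. In bulk tissue more cells of a type and more RNA per cell cannot be told apart. All 8 tested markers of capillary endothelium were higher at E95 than at E33, and their summed level went from 29.1 to 38.1 scaled TPM over the E33 libraries to 122 to 142 over those of E95. Macrophage markers had 6 of 9 higher and 0 lower, with sums of 45.0 to 59.4 at E33 and 77.8 to 129 at E95. Muscle fibre markers had 9 of 10 higher and 1 lower, with sums of 3680 to 4324 and of 23980 to 34340. The markers of fibro-adipogenic progenitors and fibroblasts had 8 of 11 higher and 2 lower (LUM and PDGFRA). Other cell types did not rise as a list. Nerve and Schwann cell markers had 1 of 5 higher and 4 lower. Muscle progenitor markers had 1 of 5 higher and 2 lower, and erythroid markers had 0 of 6 higher and 2 lower. These counts stand beside 22.8% of all tested genes called higher and 23.8% lower. On the TPM as deposited, 3 of 8 endothelial, 0 of 9 macrophage, 8 of 10 fibre and 2 of 11 fibroblast genes were higher. For nerve, muscle progenitor and erythroid markers the counts were 1 of 5, 0 of 5 and 0 of 6. All these stand beside 2.64% of all tested genes. No endothelial or macrophage marker was listed at 0 in all 3 libraries of a stage. The part of these cell types in the levels of FABP4, CD36, LPL and CEBPB was not tested.

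The adipocyte list had 9 matched genes, among them FABP4, ADIPOQ and PLIN1. Its summed level was 9.80 to 19.3 scaled TPM at E33, where FABP4 and PCK1 were listed at 0 in all 3 libraries. At E95 the sum was 87.9 to 147. FABP4 and CFD made up most of it in E95 replicates 2 and 3 (34.7 and 50.2 of 105, and 18.8 and 50.9 of 87.9). Of the 6 tested genes, ADIPOQ, CFD, FABP4 and THRSP were called higher and 0 lower, beside 22.8% and 23.8% of all tested genes. As deposited the same 4 were higher and LIPE was lower, beside 2.64% and 45.8%. E95 replicate 1 was the highest of all 18 libraries for 6 of the 9 genes, and for 7 of the 10 genes of this report. It was the highest for 6.8% of all tested genes, but this share is no like measure. Both counts include FABP4, ADIPOQ and PLIN1. PLIN1 was not tested, and ADIPOQ passed the filter on low values through E95 replicate 1 alone. Outside the 10 genes, THRSP had 16.6 scaled TPM there against 1.51 and 3.19 in the other E95 libraries, CIDEC, a droplet fusion protein, had 4.13 against 1.21 and 2.40, and PCK1, an enzyme of glycerol formation, had 4.92 against 0.985 and 0. LIPE, the hormone-sensitive lipase, had 8.42 against 11.4 and 9.12. CFD was lower there than in the other 2 libraries, with 20.7 against 50.2 and 50.9. LEP, the hormone leptin, was listed at 0 in E95 replicates 2 and 3 and had 0.342 in replicate 1.

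**Figure D4:**
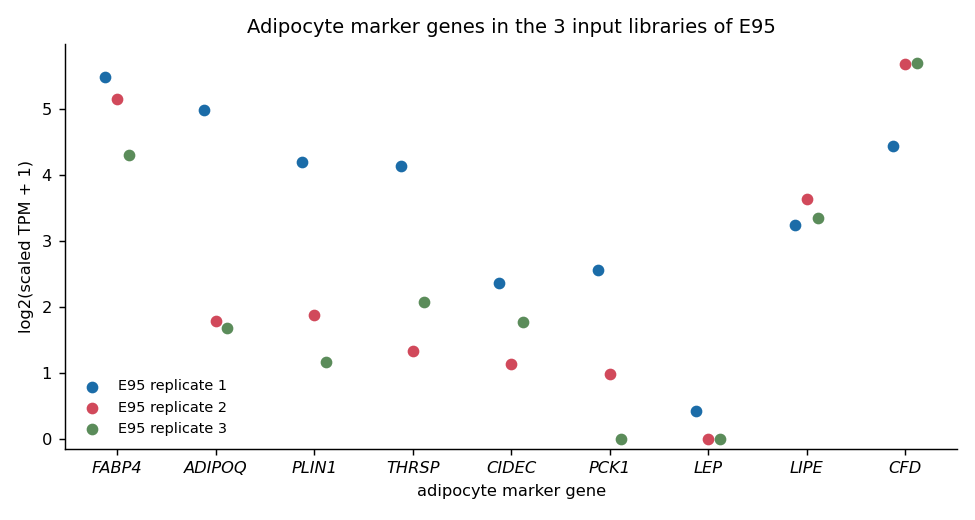
Level of the 9 adipocyte marker genes (horizontal axis) in the 3 input libraries of E95, as log2(scaled TPM + 1) on the vertical axis, with the replicate in colour. Replicate 1 is above the others for 7 genes, by the most for ADIPOQ with 30.5 against 2.45 and 2.21, and below them for LIPE and CFD.

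Across the 18 libraries, LPL and CD36 varied together with a Pearson r of 0.934 on log2(scaled TPM + 1), FABP4 and CD36 with 0.872, and FABP4 and LPL with 0.827. FABP3 with FABP4 had 0.463. These correlations share the libraries, their scaling and the order of the stages, and are given as a description. Among the 10753 other tested genes with a symbol, PRKAA2 (r = 0.983) and DACH1 (0.976) were most like CD36. CAV2 (0.963) and LAMC1 (0.959) were most like LPL. For FABP4 they were ALS2CL (0.964) and NIM1K (0.962), for CEBPB SLC22A13 (0.929) and UBAC1 (0.919), and for ADIPOQ NR1D1 (0.904). The nearest genes were less alike for PPARA (HEPACAM 0.864, COQ7 0.814), FABP3 (ETFB 0.855, VAPB 0.852) and CEBPA (TMEM234 0.819, EXOSC4 0.776).

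The m6A peaks of the 10 genes were read from the authors' lists. The 8 peak lists, 1 for each stage and 1 for each kind of PK15 RNA, give places where immunoprecipitated RNA exceeded input, with a fold enrichment that is the authors' own value. In the 6 muscle lists 3 of the 8 tested genes had a peak (FABP3, CD36 and CEBPB), where 45.8% of all tested genes had one. CD36 had to have a peak in some list, because its identifier was found through one, so its place here is not a finding. In the PK15 polyA list 3 of the 8 had one (FABP3, CEBPB and PPARA), where 57.1% of all tested genes had one. In the PK15 rRNA-depleted list only FABP3 and CEBPB of the 8 had one, where 37.1% of all tested genes had one. With 8 genes, these counts do not stand apart from the shares over all genes. PPARG and PLIN1, which were not tested, had none. CEBPA, FABP4, ADIPOQ and LPL were likewise in none of the 8 lists, and a missing peak does not show that the mark is absent. Among the pathway lists, a peak in at least 1 muscle list was found for 20 of 23 tested adipogenic regulators, 9 of 20 lipid droplet genes, 6 of 11 synthesis genes, 5 of 15 uptake genes, 6 of 23 oxidation genes and 3 of 9 adipokine genes.

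The peaks that carry these results are shown by short stretches of the pig genome Sscrofa11.1, read 5′ to 3′ on the strand named, in which capitals mark m6A consensus letters. The consensus is 5 letters long: A, G or T, then A or G, then A, then C, then A, C or T. The form GGACT is the best known. The first pair of stretches comes from both strands of the peak listed under FABP3 at every stage, and the other pair from the peaks called at E95. Apart from its first base, the first stretch lies past the end of the shorter form of that peak in the E60 and PK15 rRNA-depleted lists.
ZCCHC17 strand of the FABP3 peak, chr6:87941405-87941434, plus: tgaagccctggctcctggaaGGACTcacta
FABP3 strand of the same peak, chr6:87941208-87941237, minus: tgtcagagttagaTGACTtcctgtctctat
CD36 peak at E95, chr9:99688237-99688266, minus: aaatccctatttgGAACAgAAACCcagcac
CEBPB peak at E95, chr17:51723971-51724000, plus: cctcctgccccctctccaggcgccggcggg

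FABP3 was listed with a peak in all 6 muscle lists, as were 18.3% of all tested genes, and in both PK15 lists. The peak spans chr6:87941167-87941434 on the minus strand in 6 of the lists and ends at 87941405 in the E60 and PK15 rRNA-depleted lists. Its fold enrichment was 4.47, 6.12, 6.77, 6.09, 12.2 and 8.33 from E33 to E95, and 6.91 and 5.14 in PK15 polyA and rRNA-depleted RNA. The value was above its list's median in all 6 muscle lists, and folds of different lists show no change between stages.

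The position of this peak goes against its gene name. It lies 1569 bases past the 3′ end of FABP3 in the RefSeq annotation, outside its exons, and 162 of its 268 bases are coding sequence in the last coding exon of ZCCHC17, a gene for a zinc knuckle protein on the plus strand. In all 8 lists a peak named ZCCHC17 on the plus strand shares 246 of these bases (211 and 217 in the E60 and PK15 rRNA-depleted lists), with a fold of 4.47, 6.99, 7.23, 6.07, 12.5 and 8.91 in muscle and 5.09 and 4.31 in PK15. Such a doubling was uncommon: 4.25%, 3.17%, 4.36%, 4.47%, 4.02% and 4.34% of the peaks in the muscle lists from E33 to E95, 7.4% in the PK15 polyA list and 5.8% in the PK15 rRNA-depleted list were at least 50% covered by a peak on the other strand. The full peak holds GGACT 0 times on the FABP3 strand and 1 time on the ZCCHC17 strand, and 3 against 8 consensus forms of any kind. Of the single-block peaks within 10 bases of its length in the E95 list, 36.4% hold GGACT on their own strand. Whether the libraries kept the strand is not given in the sources used here, and without strand the reads of FABP3 and ZCCHC17 cannot be told apart at this place. ZCCHC17 itself had 3.80 ± 0.59 scaled TPM (SD, n = 3) at E33 and 2.90 ± 0.41 at E95 (limma adjusted p = 0.0953), and on the TPM as deposited it was lower at E95 (-1.28 log2, adjusted p = 0.0195).

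**Figure D5:**
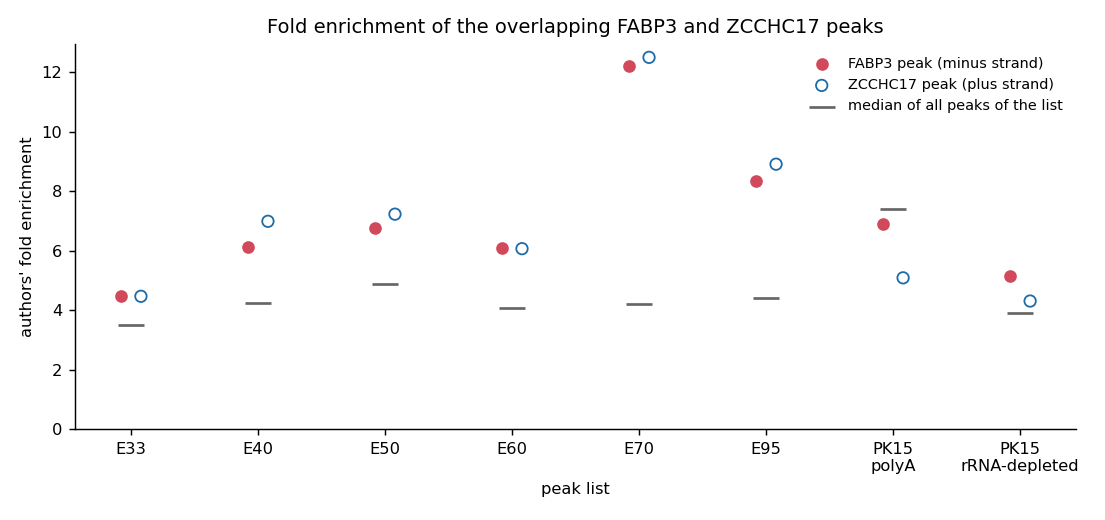
The authors' fold enrichment (vertical axis, from 0) of the peak listed under FABP3 and of the overlapping peak listed under ZCCHC17 in each of the 8 peak lists (horizontal axis), with a dash at the median of all peaks of that list. The 2 peaks follow each other through the muscle lists, from 4.47 and 4.47 at E33 to 12.2 and 12.5 at E70, and in PK15 the FABP3 peak is the higher of the pair.

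The CD36 and CEBPB peaks appeared in the E95 list of the 6 muscle lists, the stage at which both genes had their highest level, and 33.7% of all tested genes had a peak in that list. The CD36 peak, chr9:99688204-99688294 on the minus strand, is 91 bases long and lies in the last exon outside the coding sequence. Its fold was 2.85, below the list's median of 4.42, and 18.5% of the peaks of that list had a fold as low or lower. It holds 4 consensus forms and no GGACT, which 21.8% of the peaks of like length held. The CEBPB peak, chr17:51723971-51724031 on the plus strand, is 61 bases long with a fold of 4.7, and starts 298 bases past the 3′ end of CEBPB in the RefSeq annotation. A CEBPB peak of PK15 rRNA-depleted RNA, chr17:51723525-51723882, crosses that end at 51723673. Whether the transcript runs past the annotated end was not tested. The CEBPB peak of the E95 list holds no consensus form on its strand.

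In PK15 cells CEBPB had more peaks. The polyA list has 3 (folds 8.01, 5.34 and 9.98) and the rRNA-depleted list 2 (6.11 and 3.71). The polyA peak that starts just past the RefSeq end of the gene, chr17:51723674-51724179, contains the whole E95 muscle peak. The coding peaks of both PK15 lists overlap over the 328 bases of the polyA peak, chr17:51722901-51723228, which holds 1 GGACT, where 45.9% of the peaks of like length hold one. PPARA had 1 peak, in the PK15 polyA list alone of the 8 lists, at chr5:3302755-3302904 on the minus strand with a fold of 25.5. This peak covers the last 150 coding bases of the gene up to its stop codon and is shown whole, because it is the highest fold of any peak of the 10 genes. The median fold of its list was 7.41, and 92.0% of the peaks there had a fold as low or lower. For the FABP3 peak at E70, with a fold of 12.2, that share of its own list was 95.7%.
PPARA coding peak in PK15 polyA RNA, minus strand: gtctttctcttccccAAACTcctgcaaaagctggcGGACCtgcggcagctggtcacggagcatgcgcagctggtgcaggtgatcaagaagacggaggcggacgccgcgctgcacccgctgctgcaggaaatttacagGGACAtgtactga

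FABP3 also had a separate PK15 polyA peak, chr6:87950865-87950984 on the minus strand with a fold of 9.1, which starts 157 bases before the RefSeq 5′ end of FABP3 and lies in an exon of LOC106510641 on the plus strand. When a peak was counted for a gene only where it overlapped a RefSeq exon of that gene on the same strand, FABP3 had none in any list and CEBPB none at E95. The CEBPB result depends on where RefSeq ends that gene. CD36 at E95, PPARA in PK15 polyA RNA and CEBPB in both PK15 lists remained. CD36 was bound to remain, because its identifier was chosen by the position of its peak in a CD36 exon. PPARA in muscle, at 4.31 scaled TPM or more in all 18 libraries, was in none of the 6 muscle lists.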

How the data were processed

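The 10 genes, the pathway lists and the marker lists were chosen with earlier results of these data known. Per the submitters' processing notes, reads were processed with Trimmomatic and HISAT2 and the pig build Sscrofa11.1. The quantifier, the peak caller, the strandedness of the libraries and any pooling of replicates for peaks are not given in the sources used here. The deposited expression values are TPM, per the file headers, with 1 file for each of the 18 muscle input libraries. The deposited peak lists hold a fold (a ratio of immunoprecipitated RNA to input) and a p-value for each peak, computed by the authors, per the file headers. TPM values were divided by median-ratio factors and tested as log2(scaled TPM + 1) with limma 3.58.1 (R 4.3.3): 1 mean per stage, moderated variances with a trend, and Benjamini-Hochberg adjustment over 13334 genes, those averaging 1 TPM or more. Fold changes on this scale understate the change of low genes. No count test was run, because TPM keeps no depth. The code was tested on simulated data. All 10 genes were named; per pathway list and direction, the 2 called genes of largest difference whose E33 and E95 libraries do not overlap were named, and per tested gene the 2 of highest correlation. Some genes that this rule names are not reported here. Peaks were assigned by the authors' gene name, with RefSeq exons as an alternative; 94.4% of 58508 peaks with a symbol in RefSeq lay at that gene on its strand.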

Additional observations from a re-analysis of the deposited data

How the results depend on the processing

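Scaling was the choice that moved most values. On the TPM as deposited, 4 of the 8 tested genes were called between E95 and E33 in place of 7, also without any 1 of the E33 or E95 libraries (alternatives chosen after seeing the data), 0 steps between consecutive stages in place of 7, and 2680 genes over all stages in place of 6336. The split of all calls between E95 and E33 was 3046 higher and 3179 lower after scaling, 352 and 6109 as deposited, and 1186 and 6926 after rescaling without the 2 genes of highest TPM, where the median difference was -0.60. The direction reversed as deposited for PPARA (-0.54), CEBPA (-0.38) and FABP3 (-0.64), and after rescaling for PPARA (-0.022) and FABP3 (-0.065). Rescaling and a fit of only the 2 stages compared each left 4 consecutive steps called in place of 7. Leaving out single libraries gave 6 to 7 genes over all stages, 6 to 7 between E95 and E33, 5 to 8 consecutive steps, 5484 to 6636 and 5356 to 6379 genes of all, and 65 to 71 calls in the pathway lists in place of 68. Assignment by RefSeq exons left 4 of 13 pairs of a gene and a list with a peak. The CD36 pair among them was fixed by the way that gene was matched. FABP3 passed the F test without E50 replicate 2 (adjusted p = 0.014) or replicate 3 (0.00405).

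The replicate numbers did not pair the libraries: deviations of same-numbered libraries from their stage means correlated between -0.124 and 0.101, with 1 of 45 pairs over 0.1. A fit with the number as a replicate block called the same counts of the 10 genes (6, 7 and 7), 5988 genes over all stages and 6113 between E95 and E33, and 68 in the pathway lists. Of 1086 recomputed values of single genes, 1049 kept direction and side of the threshold. Many of these fits leave out an E40 to E70 library, which cannot move an estimate of E95 against E33. The pathway genes among them were picked because they were called. This count is therefore no measure of robustness to scaling. Depth is unknown and 3 libraries a stage limit the precision. The causes of these changes were not tested.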
